A study of Rattus norvegicus with 6 samples.

Results

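Genes that bind, store, oxidise and break down vitamin A were compared between livers of rats fed by vein and livers of control rats. The members were chosen by name, as the rows of the deposited expression table whose symbol was Lrat, Rbp4, Rdh10, Rdh16, Dhrs3, Aldh1a1, Cyp26a1, Crabp1 or Pnpla4. Of these 9 genes, 8 were read from the table of 25926 features, and Rdh16, a retinol dehydrogenase, is not analysed here. The TPN group held 3 Sprague-Dawley rats on total parenteral nutrition (TPN), which supplies every nutrient through a vein, for 7 days, and they were labelled with parenteral nutrition-associated liver disease, the name for liver damage seen under such nutrition. The control group held 3 Sprague-Dawley rats labelled normal that were given 0.9% saline. All 6 rats were labelled as 4 weeks old, no allele is named for either group, and the tissue was whole liver, with 1 library of total RNA from each rat. Whether rats of the groups shared litters or days is not given in the sources used here. Values are FPKM, in which the fragments of a gene are divided by transcript length and by library size, so that levels of different genes can be set side by side.

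Vitamin A reaches the liver as retinyl ester in remnants of intestinal lipoproteins. Hepatocytes cleave it to retinol, which is either sent into the blood on its carrier protein RBP4 or passed to stellate cells, where LRAT turns it back into retinyl ester for storage in lipid droplets. In cells that use it, retinol is oxidised reversibly to retinal and then irreversibly to retinoic acid, which acts through the nuclear receptors RAR and RXR and is removed by CYP26 enzymes. Several genes of the pathway, among them Lrat, Dhrs3 and Cyp26a1, are known to be raised by retinoic acid itself.

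In TPN liver, the gene for the storage enzyme, Lrat, was 2.95-fold lower than in control liver. Cyp26a1 and Dhrs3, 2 other genes known to respond to retinoic acid, were also lower with no overlap between the groups. Of 12 such genes tested, these included, 7 were lower and 5 higher in TPN. The abundant carrier gene Rbp4 did not separate the groups, while Ttr, which encodes its partner in plasma, was lower in every TPN liver. No member passed limma's test at an adjusted p under 0.05, a threshold that 0.246% of 11362 features tested passed, 0.22% lower and 0.0264% higher in TPN. The members' adjusted p ran from 0.0882 for Lrat to 0.988 for Rbp4. Crabp1 lay under the minimum mean of 1 FPKM over all livers that was set for the test. Cyp26a1 reached that minimum only through its control values, a condition that favours a lower value in TPN, and is left out of the counts that follow. Of the other 6 members tested, 2 (Lrat and Dhrs3) were lower and 0 higher in TPN at an unadjusted p under 0.05 by limma, where 7.01% of all features were lower and 4.44% higher at that level. The groups did not overlap for 2 of the 6 that were lower, the same genes, and for 1 that was higher, against 17.1% of all features tested without overlap, 9.09% lower and 8.02% higher. The median log2 fold change of the 6 was -0.47, and that of all features tested was 0.0065.

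The sequences before the start sites of the 3 genes that were lower without overlap are shown because these genes are known to respond to retinoic acid. They were chosen by their values, and Cyp26a1 reached the minimum mean only through control. Whether retinoic acid had a part in their values was not tested. Each line gives the 250 bases upstream of the annotated start, written 5′ to 3′ on the gene's strand, from RefSeq on GRCr8, at chr1:244883572-244883821 (+) for Cyp26a1, chr2:170571213-170571462 (-) for Lrat and chr5:162031603-162031852 (+) for Dhrs3. Capitals mark a match to DR5, the direct repeat of a nuclear receptor core motif with 5 bases between the copies that RAR and RXR are known to bind. RefSeq promoters were found for 7 of the 9 genes.
Cyp26a1: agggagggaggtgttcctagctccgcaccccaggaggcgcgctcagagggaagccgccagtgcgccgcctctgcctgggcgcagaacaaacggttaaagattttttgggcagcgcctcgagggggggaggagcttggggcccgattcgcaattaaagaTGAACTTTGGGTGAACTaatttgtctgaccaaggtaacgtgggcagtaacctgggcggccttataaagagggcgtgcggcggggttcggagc
Lrat: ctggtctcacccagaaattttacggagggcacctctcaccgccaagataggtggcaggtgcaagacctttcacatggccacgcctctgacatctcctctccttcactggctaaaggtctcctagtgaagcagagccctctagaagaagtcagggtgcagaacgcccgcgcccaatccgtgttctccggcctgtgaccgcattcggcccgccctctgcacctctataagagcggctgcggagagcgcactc
Dhrs3: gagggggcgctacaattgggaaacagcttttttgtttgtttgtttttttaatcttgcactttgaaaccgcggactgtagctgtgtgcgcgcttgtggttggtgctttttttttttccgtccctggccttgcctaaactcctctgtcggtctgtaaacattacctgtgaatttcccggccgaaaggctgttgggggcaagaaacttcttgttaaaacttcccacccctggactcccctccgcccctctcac
Among the 7 promoters, searched on both strands over 300 bases that include 50 after the start, Cyp26a1 alone held a DR5. It lay on the strand opposite to the gene, from -92 to -76 relative to the start, and reads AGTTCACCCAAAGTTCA on that strand. Over all 33469 RefSeq promoters of this length, 0.382% held a DR5, 0.233% a DR1 and 0.17% a DR2, the same repeat with 1 or 2 bases between the copies. No member's promoter held a DR1 or DR2. A match is a description of the letters and not of binding, and its absence says only that these letters are not in the window.

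Lrat encodes lecithin:retinol acyltransferase, which makes the retinyl esters that stellate cells store. Lrat measured 2.68, 5.24 and 5.86 FPKM in TPN livers 1, 2 and 3, against 15.5, 11.5 and 13.7 FPKM in control livers 1, 2 and 3. The highest TPN value lay well under the lowest control value. The means were 4.60 ± 1.69 FPKM in TPN and 13.6 ± 2.0 FPKM in control (SD, n = 3 each), 2.95-fold lower in TPN. The log2 fold change was -1.42 (SE 0.25, 95% interval -2.0 to -0.84, limma adjusted p = 0.0882), so that the difference did not pass over all features. The adjusted p over the alternatives ran from 0.0171 to 0.312, and it was under 0.05 in 2 of 16, with sample weights (0.0171) and without control 2 and TPN 1 (0.0443). In those settings 299 and 122 of all 11362 features tested passed, against 28 in the fit above.

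In the liver Lrat is mainly a gene of stellate cells, and bulk tissue cannot tell fewer cells of a type from less RNA per cell. Of 15 other markers of stellate cells tested, 11 were lower and 4 higher in TPN, none passed, 1 was lower at an unadjusted p under 0.05, and their median log2 fold change was -0.21. Their summed level ran from 144 to 189 FPKM in TPN livers and from 164 to 267 FPKM in control livers, and none of the 18 marker genes read was at 0 in all 6 livers. The marker lower without overlap was Col3a1, a fibrillar collagen, with 64.0 ± 11.7 FPKM in TPN and 109 ± 26.8 FPKM in control (SD, n = 3 each). Col1a1, another fibrillar collagen, averaged 3.88 ± 2.08 FPKM in TPN and 9.48 ± 5.55 FPKM in control, a log2 fold change of -1.04 with overlap (limma adjusted p = 0.443). The 4 markers with positive log2 fold changes, all with overlap, were the growth factor Hgf, the proteoglycan Dcn, Rgs5 and Hand2. Hgf averaged 8.88 ± 2.01 FPKM in TPN and 6.06 ± 1.87 FPKM in control, and Dcn 7.18 ± 0.948 FPKM in TPN and 5.34 ± 2.15 FPKM in control. Reln, an extracellular protein that marks these cells, averaged 4.37 ± 0.65 FPKM in TPN and 5.21 ± 0.62 FPKM in control. These markers were named after their values were seen.

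Within each liver, Lrat was 1.75%, 2.78% and 4.07% of the summed level of the other stellate markers in TPN livers 1, 2 and 3, against 6.87%, 4.30% and 8.32% in control livers 1, 2 and 3. The groups did not overlap, though TPN 3 and control 2 lay close together. The mean was 2.86 ± 1.16% in TPN and 6.50 ± 2.04% in control (SD, n = 3 each; 2-sided exact permutation p = 0.1, the smallest that 3 against 3 can give). With Col3a1, the most abundant marker, left out of the sum, the share was 4.81 ± 2.17% in TPN and 12.9 ± 3.94% in control. Taken as the median log2 difference from each marker, Lrat stood at -0.57, 0.041 and 0.88 in TPN livers 1, 2 and 3 and at 1.5, 0.80 and 1.62 in control livers 1, 2 and 3, so that TPN 3 and control 2 overlapped (exact permutation p = 0.2).

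Pnpla4, a lipase that cleaves retinyl esters in work on the human protein, was the member that was higher in TPN without overlap. It measured 2.49, 2.33 and 2.36 FPKM in TPN livers 1, 2 and 3, against 1.52, 2.21 and 1.74 FPKM in control livers 1, 2 and 3. The TPN values were close to each other, and the highest control value lay just under the lowest of them. The log2 fold change was 0.27 (SE 0.15, 95% interval -0.069 to 0.61, limma adjusted p = 0.531). With median-ratio scaling of the libraries the groups overlapped.

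**Figure D1:**
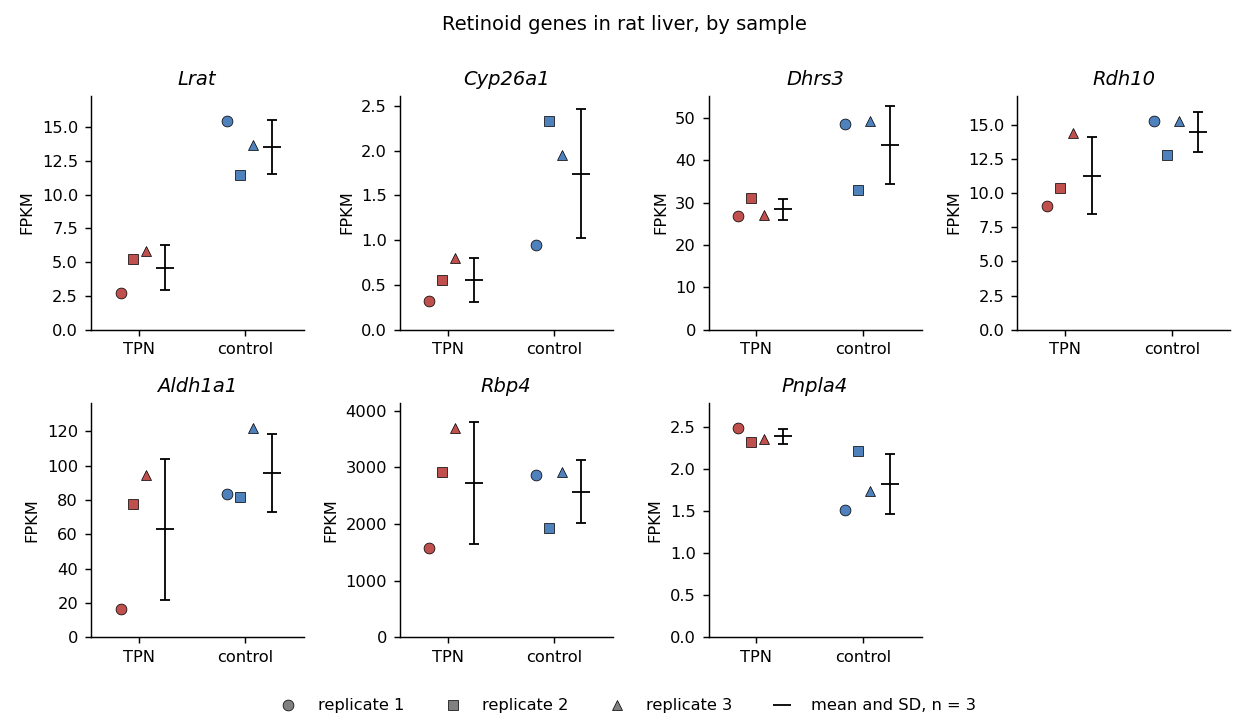
FPKM of 7 retinoid genes in each liver on linear axes that start at 0, with TPN and control side by side, symbols for the replicate and a black bar for the mean and SD (n = 3). Lrat, Cyp26a1 and Dhrs3 were lower and Pnpla4 higher in TPN without overlap, and TPN replicate 1 was the lowest of all 6 livers for 6 of the 7 genes.

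Between retinol and retinal, Rdh10 works in the direction of oxidation and Dhrs3 in the direction of reduction. Dhrs3 measured 26.9, 31.2 and 27.2 FPKM in TPN livers 1, 2 and 3, against 48.5, 33.0 and 49.4 FPKM in control livers 1, 2 and 3. All TPN values lay under all control values, by a narrow margin for TPN 2 and control 2. The means were 28.4 ± 2.41 FPKM in TPN and 43.6 ± 9.20 FPKM in control (SD, n = 3 each), with a log2 fold change of -0.58 (SE 0.20, 95% interval -1.05 to -0.11, limma adjusted p = 0.35).

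Rdh10 measured 9.06, 10.4 and 14.5 FPKM in TPN livers 1, 2 and 3, against 15.3, 12.8 and 15.3 FPKM in control livers 1, 2 and 3. TPN 3 lay among the controls and the other TPN livers under them. The log2 fold change was -0.35 (SE 0.20, 95% interval -0.81 to 0.099, limma adjusted p = 0.54). With median-ratio scaling, under which TPN 3 is divided by the largest factor of the 6 (1.10), the groups did not overlap.

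Aldh1a1, the retinal dehydrogenase that makes retinoic acid from retinal and also oxidises other aldehydes, measured 16.4, 77.5 and 94.7 FPKM in TPN livers 1, 2 and 3, against 83.2, 81.6 and 122 FPKM in control livers 1, 2 and 3. TPN 1 stood far under the other 5 livers, and TPN 3 lay within the control range. Within the TPN group the values spanned 5.78-fold, and within the control group 1.49-fold. The log2 fold change was -0.90 with all livers (SE 0.64, 95% interval -2.43 to 0.63, limma adjusted p = 0.645) and -0.13 without TPN 1 (limma adjusted p = 0.853).

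Cyp26a1, the cytochrome P450 that hydroxylates retinoic acid and starts its removal, was the least abundant of the 7 members tested. It measured 0.317, 0.55 and 0.80 FPKM in TPN livers 1, 2 and 3, against 0.942, 2.34 and 1.95 FPKM in control livers 1, 2 and 3. The TPN values lay under all control values, TPN 3 and control 1 being close. The means were 0.556 ± 0.242 FPKM in TPN and 1.74 ± 0.719 FPKM in control (SD, n = 3 each), 3.13-fold lower in TPN. On the log2(FPKM + 1) scale, which understates the change of a gene this low, the log2 fold change was -0.79 (SE 0.23, 95% interval -1.34 to -0.25, limma adjusted p = 0.277). With a pseudocount of 0.1 it was -1.47 (SE 0.44, limma adjusted p = 0.292). Depth is unknown, so no counting error can be set beside values under 1 FPKM.

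Crabp1, a cytosolic protein that binds retinoic acid, was listed at 0.0375 FPKM in TPN 1 and at 0 in the other 5 livers.

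Rbp4 was by far the most abundant member and made up 95.8% to 96.4% of the members' summed FPKM in TPN livers and 93.1% to 94.5% in control livers. It measured 1567, 2907 and 3687 FPKM in TPN livers 1, 2 and 3, against 2860, 1931 and 2912 FPKM in control livers 1, 2 and 3. TPN 1 was the lowest and TPN 3 the highest of the 6, with the controls and TPN 2 between them. The means were 2720 ± 1072 FPKM in TPN and 2568 ± 552 FPKM in control (SD, n = 3 each). The log2 fold change was 0.021 (SE 0.37, 95% interval -0.84 to 0.88, limma adjusted p = 0.988), and the interval leaves room for a change in either direction. Its sign turned with quantile normalisation and without control 2, TPN 2 or TPN 3.

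**Figure D2:**
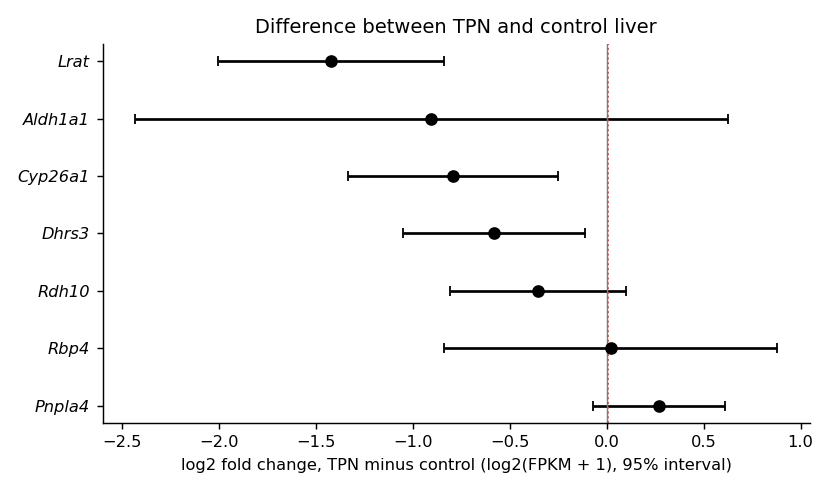
Log2 fold change of the 7 members tested, TPN minus control, with limma's 95% interval, against 0 (grey line) and the median of all features tested (dotted line). The intervals of Lrat, Cyp26a1 and Dhrs3 lie under 0 before adjustment for the number of features, and those of the other 4 include 0.

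Ttr encodes transthyretin, the plasma protein that RBP4 travels with. It measured 1552, 3140 and 2830 FPKM in TPN livers 1, 2 and 3, against 8528, 4225 and 7615 FPKM in control livers 1, 2 and 3, with no overlap. The difference was -1.44 on the log2 scale (SE 0.40, limma adjusted p = 0.242).

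The ratio of Rbp4 to Ttr within a liver was 1.01, 0.926 and 1.30 in TPN livers 1, 2 and 3, against 0.335, 0.457 and 0.382 in control livers 1, 2 and 3. The lowest TPN ratio lay far above the highest control ratio. The mean ratio was 1.08 ± 0.198 in TPN and 0.392 ± 0.0614 in control (SD, n = 3 each; 2-sided exact permutation p = 0.1, the smallest possible), 2.76-fold higher in TPN. Leaving out each liver in turn gave 2.47-fold to 3.01-fold.

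Set against albumin (Alb), the main secreted protein of hepatocytes, Rbp4 stood at 0.122, 0.0739 and 0.12 in TPN livers 1, 2 and 3, against 0.0596, 0.0594 and 0.0602 in control livers 1, 2 and 3. The control ratios were nearly equal although Rbp4 itself spanned 1.51-fold among the controls, and all TPN ratios lay above them. The mean ratio was 0.105 ± 0.0273 in TPN and 0.0597 ± 0.0004 in control (SD, n = 3 each; 2-sided exact permutation p = 0.1), 1.76-fold higher in TPN. Alb itself had a log2 fold change of -0.76, with overlap (limma adjusted p = 0.597).

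**Figure D3:**
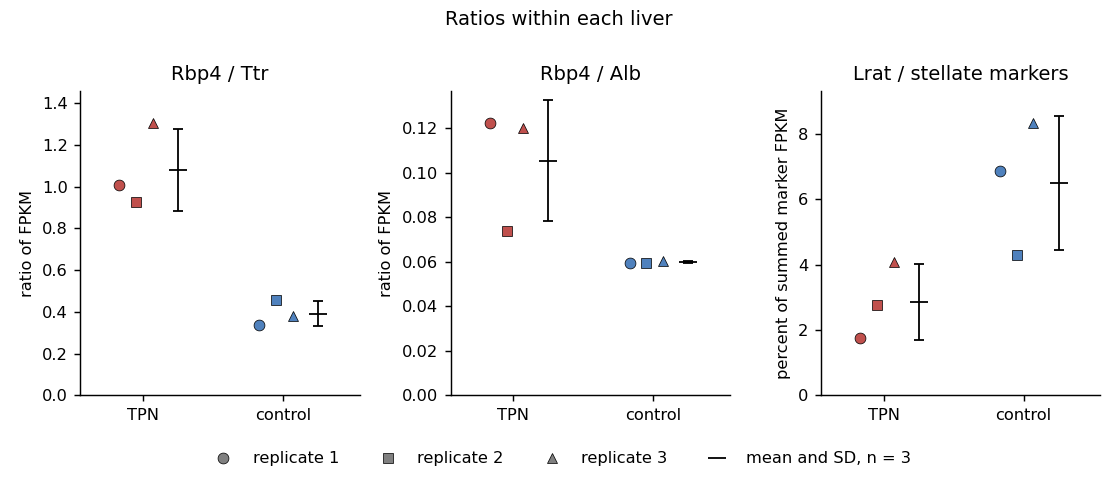
Ratios of FPKM within each liver (Rbp4 to Ttr and Rbp4 to Alb) and Lrat as a percentage of the summed FPKM of the other stellate markers, TPN and control side by side, with the mean and SD (n = 3). The Rbp4 ratios were higher and the Lrat share lower in each TPN liver than in each control liver. Rbp4 itself did not separate the groups (log2 fold change 0.021), and its partners had negative log2 fold changes (-1.44 for Ttr and -0.76 for Alb).

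The livers of the TPN group were not alike in these genes. TPN 1 was the lowest of all 6 livers for 6 of the 7 members tested, TPN 3 was the highest of the TPN group for 5, and control 2 was the lowest control for 5. Positive acute-phase genes, which liver makes in inflammation, had another order: 12 of 13 had positive log2 fold changes, none passed, 3 were higher at an unadjusted p under 0.05, and the median was 1.2. Their summed level was 125683, 60264 and 48101 FPKM in TPN livers 1, 2 and 3, against 25356, 67449 and 25834 FPKM in control livers 1, 2 and 3. TPN 1 was the highest of all and control 2 the highest control. Rbp4, Ttr and Alb are known as negative acute-phase genes, and of the 7 genes of that list, these included, 5 were lower in TPN, with a median log2 fold change of -0.74. Of the 7 none passed, and 3 were lower and 0 higher at an unadjusted p under 0.05 by limma. Over all features tested 7.01% were lower and 4.44% higher at that level. The part of the acute phase in the members' values was not tested. Without control 2 and TPN 1, the log2 fold change was -1.25 for Lrat, -0.73 for Dhrs3, -0.52 for Cyp26a1 and 0.18 for Rbp4 (limma adjusted p of 0.0443, 0.145, 0.386 and 0.71). In the livers left, the acute-phase sums of TPN (60264 and 48101 FPKM) still lay above those of control (25356 and 25834 FPKM). Group and acute phase therefore cannot be told apart in that fit.

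Aldh1a1 and Cyp26a1 are known in the mouse to be expressed around the central vein. Of 13 genes of that zone tested, these included, 12 were lower in TPN, with a median log2 fold change of -0.55, none passed, and 5 were lower at an unadjusted p under 0.05, among them Cyp26a1, which reached the minimum mean only through control. Genes of the portal zone were lower in 11 of 14, with a median of -0.42, none passed, and 2 were lower and 2 higher at that level. The summed level of the central genes ran from 514 to 2226 FPKM in TPN livers and from 1516 to 2641 FPKM in control livers, and that of the portal genes from 2737 to 4969 FPKM in TPN livers and from 3749 to 4421 FPKM in control livers. Their part in the members' values was not tested.

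Among the other genes of retinoid handling, 61 genes were read and 43 tested. None passed over all features, 5 were lower and 0 higher in TPN at an unadjusted p under 0.05 by limma, and 28 had negative and 15 positive log2 fold changes, with a median of -0.15. The groups did not overlap for 7 genes lower and 1 higher in TPN, 18.6% of those tested, which is near the 17.1% of all features.

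Of 4 carriers and uptake genes tested, Ttr included, 2 were lower and 2 higher. Scarb1, a receptor that takes up lipids and carotenoids, averaged 41.3 ± 9.6 FPKM in TPN and 35.2 ± 5.77 FPKM in control. RGD1305807, the older symbol under which RefSeq lists the receptor gene Stra6l, averaged 17.8 ± 7.19 FPKM in TPN and 22.6 ± 10.3 FPKM in control. Stra6, the RBP4 receptor of other tissues, was listed at 0 in all 6 livers and was named after its values were seen.

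Of 8 genes tested that make or cleave esters of retinol or related lipids, 6 were lower and 2 higher. Lipc, the hepatic lipase that works on lipoprotein remnants, averaged 47.7 ± 26.5 FPKM in TPN and 156 ± 59.1 FPKM in control without overlap (SD, n = 3 each; log2 fold change -1.81, SE 0.54, limma adjusted p = 0.303). Ces1d, a carboxylesterase, measured 13.3, 30.5 and 129 FPKM in TPN livers 1, 2 and 3, against 115, 105 and 141 FPKM in control livers 1, 2 and 3. Its TPN 3 value lay within the control range and the other TPN values far under it, the order that Rdh10 showed. Pnpla3, a lipase known in human stellate cells for cleaving retinyl esters, averaged 0.334 ± 0.492 FPKM in TPN and 2.34 ± 2.06 FPKM in control and reached the minimum mean only through control. The carotene-cleaving enzymes Bco1 and Bco2 averaged 8.28 ± 2.0 and 6.01 ± 3.8 FPKM in TPN, against 10.8 ± 1.39 and 9.02 ± 2.55 FPKM in control, with overlap for each.

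Of 9 other retinol and retinal oxidoreductases tested, 6 were lower and 3 higher. Rdh11, which mainly reduces retinal, averaged 20.7 ± 5.76 FPKM in TPN and 31.8 ± 1.39 FPKM in control without overlap (SD, n = 3 each; log2 fold change -0.63, SE 0.21, limma adjusted p = 0.329). Rdh5, the dehydrogenase of cis-retinols, averaged 7.54 ± 1.46 FPKM in TPN and 10.3 ± 1.55 FPKM in control, and Dhrs7 7.91 ± 0.846 FPKM in TPN and 9.81 ± 0.388 FPKM in control, each without overlap (limma adjusted p of 0.473 and 0.51). Dhrs4, a reductase that also acts on retinal, was the gene higher without overlap, with 74.5 ± 3.51 FPKM in TPN and 61.8 ± 2.39 FPKM in control, and was named after its values were seen.

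Of 5 retinal dehydrogenases and aldehyde oxidases tested, 4 were lower and 1 higher. Aox3, an aldehyde oxidase, averaged 4.68 ± 3.12 FPKM in TPN and 15.8 ± 6.12 FPKM in control without overlap (SD, n = 3 each; log2 fold change -1.63, SE 0.42, limma adjusted p = 0.235). Aldh1a7, a close relative of Aldh1a1, measured 4.37, 0.456 and 0.285 FPKM in TPN livers 1, 2 and 3, against 69.9, 43.9 and 1.2 FPKM in control livers 1, 2 and 3. Control 3 stood apart from the other controls and overlapped the TPN livers. Since the genes are near copies, reads may have been split between them, and the values of Aldh1a1 and Aldh1a7 are uncertain to that extent. Aldh8a1, which oxidises cis-retinal, averaged 135 ± 34.0 FPKM in TPN and 174 ± 26.2 FPKM in control.

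Of the other breakdown genes 2 were tested. Cyp2c22, which hydroxylates retinoic acid in the rat, averaged 817 ± 387 FPKM in TPN and 620 ± 83.7 FPKM in control, and Ugt2b17, a glucuronosyltransferase, 158 ± 53.7 FPKM in TPN and 206 ± 52.4 FPKM in control (SD, n = 3 each; limma adjusted p of 0.785 and 0.676). Cyp2c22 was far more abundant per length than Cyp26a1 in every liver.

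The receptors did not separate the groups. Of 6 tested, 5 were lower and 1 higher, and no receptor was without overlap. At an unadjusted p under 0.05 by limma, 1 was lower, Rxrg. It averaged 5.59 ± 1.18 FPKM in TPN and 9.37 ± 3.33 FPKM in control (limma unadjusted p = 0.0454, adjusted p = 0.424). Rara averaged 6.26 ± 0.347 FPKM in TPN and 7.41 ± 0.902 FPKM in control, and Rxra 88.0 ± 17.6 FPKM in TPN and 96.6 ± 12.3 FPKM in control.

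A list of genes known to respond to retinoic acid had 12 genes tested, of which 7 were lower and 5 higher in TPN, with a median log2 fold change of -0.14. The 7 and the median include Lrat, Cyp26a1 and Dhrs3, members chosen with earlier results of these data known. None of the 5 that were higher is a member. None passed. With Cyp26a1 left out, since it reached the minimum mean only through control, 2 were lower and 0 higher at an unadjusted p under 0.05 by limma, Lrat and Dhrs3. Of the 12, 4 were lower without overlap, Lrat, Cyp26a1, Dhrs3 and Rarres2, and 0 higher. Over all features tested these shares were 9.09% lower and 8.02% higher. Rarres2 averaged 400 ± 99.3 FPKM in TPN and 529 ± 7.51 FPKM in control (limma adjusted p = 0.543) and was named after its values were seen. Rarb, a receptor gene that is itself a target of retinoic acid, averaged 9.35 ± 4.45 FPKM in TPN and 10.1 ± 3.46 FPKM in control (SD, n = 3 each) and was named after its values were seen.

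**Figure D4:**
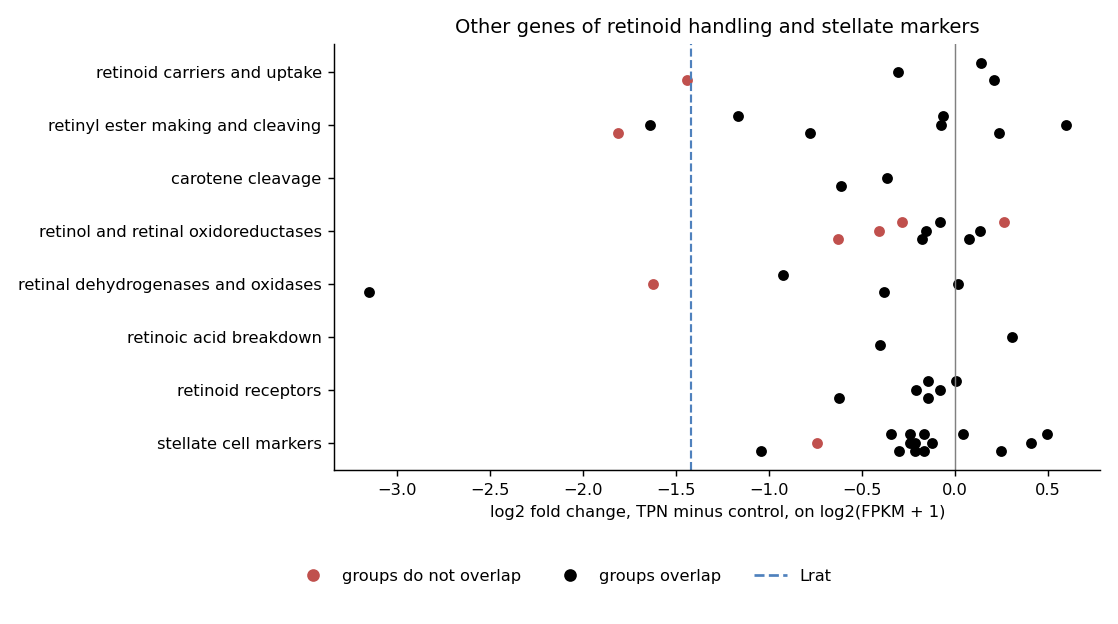
Log2 fold change, TPN minus control on log2(FPKM + 1), of the other retinoid genes tested and of stellate markers, 1 point a gene by list, red where the groups do not overlap, with Lrat as the dashed line. Most lists scatter around and under 0, and no stellate marker lies as low as Lrat.

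The features whose pattern over the 6 livers was most like that of Lrat were Hyal1, Car2 and Slc17a4. Likeness was the root mean square difference of centred log2(FPKM + 1) values, over 6533 features with a symbol and a mean of at least 5 FPKM, and was 0.12, 0.15 and 0.17 on the log2 scale, against a spread of 0.77 for Lrat itself. Hyal1, a hyaluronidase, averaged 3.33 ± 1.25 FPKM in TPN and 10.1 ± 1.66 FPKM in control. Nearest to Cyp26a1 were Erg28, Zfp36l2 and Irf2, at 0.21, 0.22 and 0.22, against a spread of 0.48 for Cyp26a1. The likeness rests on 6 livers and is a description only.

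The libraries were checked against their tissue. Hepatocyte genes summed to between 29529 and 52921 FPKM in TPN livers and between 49095 and 67573 FPKM in control livers, with 7 of 12 higher in TPN. Of the 12, 2 were lower and 0 higher at an unadjusted p under 0.05 by limma, Ttr and Apoa2. Apoa2 averaged 260 ± 78.2 FPKM in TPN and 876 ± 224 FPKM in control without overlap (limma adjusted p = 0.0873) and was named after its values were seen. Adipoq, Plin1 and Lep of adipocytes, Prss1 and Ins2 of pancreas and Alpi of intestine were listed at 0 in all 6. Of 9 Kupffer cell markers tested 7 were higher in TPN and 3 were higher at an unadjusted p under 0.05, and of 9 endothelial markers 6 were lower and 0 differed at that level. All 3 cholangiocyte markers tested were lower in TPN, and Epcam and Krt19 were so without overlap and at an unadjusted p under 0.05. Epcam averaged 4.59 ± 0.653 FPKM in TPN and 8.22 ± 2.06 FPKM in control, and Krt19 1.36 ± 0.153 FPKM in TPN and 2.33 ± 0.722 FPKM in control (SD, n = 3 each), both named after their values were seen. The summed level of the cholangiocyte markers ran from 11.3 to 15.1 FPKM in TPN livers and from 15.4 to 23.7 FPKM in control livers. All 3 leukocyte markers tested were higher in TPN, with overlap and 0 at that level, and their summed level ran from 20.1 to 51.8 FPKM in TPN livers and from 11.3 to 34.7 FPKM in control livers. Both intestine markers tested, Apoa4 and Fabp2, were lower and the adipocyte marker tested, Cidec, higher in TPN, all named after their values were seen. The other genes of these lists were at or near 0, so these values were not read as a measure of intestine or fat. All 5 erythroid genes tested had negative log2 fold changes, though Slc4a1 reached the minimum mean only through control. The other 4 passed limma's test as lower in TPN, the globin genes Hba-a1, Hba-a2 and Hbb and Alas2, the first enzyme of heme synthesis in red cells. Their log2 fold changes were -2.48, -2.69, -2.55 and -1.63 (limma adjusted p of 0.0422, 0.0418, 0.0353 and 0.0418). Hba-a1 averaged 207 ± 90.8 FPKM in TPN and 1083 ± 93.3 FPKM in control (SD, n = 3 each). Reads of the globin genes may have been split between near copies. Their part in the members' values was not tested.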

How the data were processed

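RNA was measured in 1 library from each of 6 rat livers, grouped by title. Per the labels' protocols, TRIzol RNA and standard Illumina libraries were used. Bowtie 0.12.2, Cufflinks and the build Rnor_6.0 are named in the submitters' processing notes, without their roles. A table of FPKM was deposited by the authors, with no counts. At most 0.905% of ratios between samples of values under 0.3 FPKM fell in 1 bin of width 0.01 (log2), so whole reads could not be recovered and depth is unknown. Whether counting used strand, and how it treated reads shared by near copies, is not given in the sources used here.

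Features were kept where their mean reached 1 FPKM, taking log2(FPKM + 1) into limma 3.58.1 (with statmod 1.5.0 under R 4.3.3; trend and robust moderation, group as the only term, 2-sided, Benjamini-Hochberg over all features at 0.05). The procedure was run on simulated data with independent normal noise. That run does not show how it performs where a liver stands apart over many genes. Ratios were tested by exact permutation (scipy 1.17.1). The members and lists (23 lists, 230 entries, 206 matched by symbol and 3 by older RefSeq symbols) were chosen with earlier results of these data known. A gene taken off the lists is not reported here. Named were the members, of each retinoid list the 3 genes with the smallest p, genes past the threshold, defining markers at 0 and the 3 features most like Lrat and Cyp26a1. The labels name 3 rats a group, and 3 against 3 cannot give an exact p under 0.1. Alternatives were another pseudocount, filters, scalings, moderation and weights, the replicate number as a block and livers left out. Figures were drawn with matplotlib 3.10.9.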

Additional observations from a re-analysis of the deposited data

How the results depend on the processing

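Of 110 values of the 7 members under 16 alternatives, 104 kept their direction and their side of the threshold. The 2 that passed were Lrat with sample weights (log2 fold change -1.36) and without control 2 and TPN 1 (-1.25), so the count of members past the threshold was 1 in each, against 0 in the others run. The 4 that changed sign were Rbp4 with quantile normalisation (-0.0401), without control 2 (-0.17), without TPN 2 (-0.071) and without TPN 3 (-0.24), and leaving out 1 liver gave -0.24 to 0.38. The count of members at an unadjusted p under 0.05, Cyp26a1 included, ran from 2 to 5, and Cyp26a1 reached the minimum mean only through control. The count over all features moved as well. It was 2566 of 11362 with sample weights, where the members' count was 5. Among the settings where the members' count was 2, it was 638 without control 1 and 1737 without control 2 and TPN 1. With a minimum mean of 5 FPKM, Cyp26a1 and Pnpla4 were not tested.

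The count of features past the threshold, 28, was 18 with a pseudocount of 0.1, 6 with a minimum mean of 5 FPKM, 8 without trend or robust settings, 299 with sample weights and 122 without control 2 and TPN 1. It was 0 by limma without a filter, with median-ratio scaling and with quantile normalisation, where 1898, 1558 and 1591 features had an unadjusted p under 0.05. Leaving out 1 liver gave 0 to 46, which was 7, 46 and 8 for control 1, 2 and 3 and 26, 1 and 0 for TPN 1, 2 and 3 (1386 at an unadjusted p under 0.05 without TPN 3). The causes were not tested. With the replicate block the count was 58 and no member passed. Deviations from the group means correlated across features at -0.21, -0.14 and 0.32 for livers numbered 1, 2 and 3, so number 3 alone deviated together, and the numbers were not taken as pairs.

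The fold of Rbp4 per Ttr, 2.76, was 1.76 with Alb as the partner. The summed level of the members was 1.03 times as high in TPN as in control, and 0.645 times without Rbp4. The Lrat share of stellate markers was 0.441 times that of control, and 0.348 to 0.527 times over livers left out in turn. The sum without Col3a1 (0.374 times) and the check of overlap after scaling were chosen after seeing the data.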
